A study of Mus musculus with 617 samples.

Results

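DNA methyltransferases, their recruiting partner and the enzymes that oxidise or remove methylated cytosine were followed across single mouse cells of 13 labelled groups. The set was 9 genes of the 43628 in each deposited table, taken by their Ensembl identifiers: Dnmt1, Uhrf1, Dnmt3a, Dnmt3b, Dnmt3l, Tet1, Tet2, Tet3 and Tdg. All 9 were present in all 4 tables, and all 9 passed the filter on low values described below. They were chosen by name and not by their values. In GENCODE annotation of GRCm38 the 2 maintenance genes span chr9:20907209-20959888 (Dnmt1, ENSMUSG00000004099, minus strand) and chr17:56303321-56323486 (Uhrf1, ENSMUSG00000001228, plus strand). The de novo genes span chr12:3806007-3914443 (Dnmt3a, ENSMUSG00000020661), chr2:153649450-153687730 (Dnmt3b, ENSMUSG00000027478) and chr10:78041947-78063622 (Dnmt3l, ENSMUSG00000000730), all on the plus strand. The oxidising genes span chr10:62804570-62908996 (Tet1, ENSMUSG00000047146), chr3:133463679-133545139 (Tet2, ENSMUSG00000040943) and chr6:83362373-83459084 (Tet3, ENSMUSG00000034832), all on the minus strand, and Tdg (ENSMUSG00000034674) spans chr10:82629828-82650799 on the plus strand.

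RNA had been measured in 617 cells by SMART-seq2, a full-length cDNA method for single cells, with Tn5 fragmentation. The cultured cells came from 1 female and 1 male embryonic stem (ES) cell line derived from embryos of a C57BL/6J mother mated to a CAST/EiJ father, so sex and line cannot be told apart. ES cells kept in 2i and LIF comprised 60 female and 51 male cells, and ES cells kept in serum and LIF comprised 68 female and 52 male cells. Cells labelled Epi, cultured with Activin A and FGF2, comprised 79 female and 63 male cells, and 41 female cells came from an Epi culture of 7 passages. Cells labelled motor neuron, obtained through embryoid bodies with retinoic acid and the smoothened agonist SAG, comprised 39 female and 35 male cells. The labels say that this differentiation also yields interneurons. Embryos of the same CAST/EiJ by C57BL/6J cross gave 23 inner cell mass (ICM) cells taken at E3.5 and, at E4.5, 23 cells labelled epiblast, with no labelled sex. Epiblast cells at E5.5 had C57BL/6J parents on both sides and comprised 20 female and 63 male cells.

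Methyl groups on cytosines of CpG dinucleotides are copied to the new DNA strand after replication by DNMT1, which UHRF1 brings to hemimethylated sites. DNMT3A and DNMT3B methylate new sites, and DNMT3L, which has no catalytic activity of its own, stimulates both. TET1, TET2 and TET3 oxidise 5-methylcytosine, and thymine DNA glycosylase (TDG) excises the further oxidised bases for repair. In the mouse the methylation of the genome is low in the blastocyst and in ES cells in 2i. It is high in the epiblast after implantation and in male ES cells in serum. Only RNA was measured in these cells, so none of the values below is a methylation level or an enzyme activity.

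Every value is FPKM, fragments per kilobase of transcript, scaled to the fragments of each cell, computed per gene and cell by the authors. Since FPKM is scaled to length, levels may be set side by side between genes. Read counts were not used and the depth per cell is unknown. Group medians of the genes a cell held at 1 FPKM or more lay between 8122 (E3.5) and 10839.5 (female E5.5). Group medians of the summed FPKM of a cell lay between 511794 (E4.5) and 1478620 (male motor neuron). The 4 tables hold the blastocyst cells, the ES, first Epi and motor neuron cells, the 7-passage Epi cells and the E5.5 cells. They were treated as normalised separately, because how each was scaled is not given. Levels that cross tables are therefore given side by side without a test. A share of cells is the share at 1 FPKM or more, with an exact Clopper-Pearson 95% interval that covers the sampling of cells only. Zeros were rare for abundant genes. Actb, Eef1a1, Ubb, Rplp0 and Eef2 were listed at 0 in 0 of the 617 cells, Ppia in 1 and Gapdh in 2. Such genes do not show how often a gene near 1 FPKM is missed.

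The promoters of these genes are shown first because the enzymes act on CpG dinucleotides and because Dnmt1 and Uhrf1 share a sequence there. RefSeq start sites on GRCm38.p6 gave 16 windows of 250 bases upstream for the 9 genes, out of 32851 windows of 27025 genes. The 8 letters TTTCGCGC, a form of the E2F site found at promoters of S phase genes, were searched for on both strands after the windows had been looked at. They lay in 84 of the 32851 windows (0.256%) and in 2 of the 16 windows of the set, 1 of Dnmt1 and 1 of Uhrf1. The 30 bases around each match are printed 5′ to 3′ on the gene's own strand, with the match, or its reverse complement GCGCGAAA, in capitals. The Dnmt1 stretch is chr9:20952824-20952853 on the minus strand and the Uhrf1 stretch is chr17:56304117-56304146 on the plus strand.
Dnmt1: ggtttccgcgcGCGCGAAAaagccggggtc
Uhrf1: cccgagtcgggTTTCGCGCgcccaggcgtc

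The starts of the de novo methyltransferase genes held from 3 to 40 CpGs. The median over all windows was 6 CpGs, with quartiles of 2 and 16. Of 3 Dnmt3a windows, that at chr12:3806730-3806979 on the plus strand held 38 CpGs, at percentile 98.3, and the others held 40 and 15 (percentiles 98.8 and 73.6). The Dnmt3b window at chr2:153649199-153649448 on the plus strand held 21, at percentile 84.4. Of 3 Dnmt3l windows, that at chr10:78049592-78049841 on the plus strand held 4, at percentile 41.1, and the others held 5 and 3. Whether Dnmt3a stood above Dnmt3b in CpGs thus depends on the start. The Tet2 window held 51, at percentile 99.9. The first-named window of each gene is printed with every CpG in capitals, because these are the 3 genes with the largest differences between serum and 2i. The gene-level values do not show which start was used.
Dnmt3a: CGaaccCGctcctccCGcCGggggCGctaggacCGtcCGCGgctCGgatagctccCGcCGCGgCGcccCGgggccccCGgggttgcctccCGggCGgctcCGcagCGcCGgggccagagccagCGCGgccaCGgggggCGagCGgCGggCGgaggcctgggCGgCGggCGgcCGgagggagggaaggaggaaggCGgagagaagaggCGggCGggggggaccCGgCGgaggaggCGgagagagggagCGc
Dnmt3b: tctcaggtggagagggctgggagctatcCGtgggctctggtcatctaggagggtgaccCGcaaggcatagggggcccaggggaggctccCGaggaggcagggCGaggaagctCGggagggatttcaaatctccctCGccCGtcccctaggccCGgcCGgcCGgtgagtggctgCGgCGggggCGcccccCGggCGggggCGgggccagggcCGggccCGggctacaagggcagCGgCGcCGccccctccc
Dnmt3l: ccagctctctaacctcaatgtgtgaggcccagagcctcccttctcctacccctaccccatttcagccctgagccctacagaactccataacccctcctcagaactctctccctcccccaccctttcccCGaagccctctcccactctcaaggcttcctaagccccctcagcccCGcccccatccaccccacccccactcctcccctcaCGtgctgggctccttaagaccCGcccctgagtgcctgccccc

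Several groups held markers that went against their labels, and the results below rest on them. In the first female Epi culture Zfp42, a marker of naive pluripotency, averaged 72.5 FPKM, against 0.0687 in male Epi and 0.117 in the 7-passage culture. Fgf5, a marker of the primed epiblast, was at 14.1, 144.9 and 120 FPKM in these 3 cultures. Against serum ES cells, 3 of the 4 primed epiblast markers were higher in both the first female and the male Epi culture. Of the 6 pluripotency markers, 4 were lower in both. Most genes of both lists thus differed from serum in the same direction in these cultures. The cells labelled E4.5 epiblast carried trophectoderm markers. Summed over 7 such genes, their level had a median of 1145 FPKM (range 24.4 to 3135), against 177.7 FPKM at E3.5 (range 27.6 to 1591), and Cdx2 was present in 86.96% of E4.5 cells. Pou5f1 was present in all 23. Cdx2 reached 10 FPKM in 16 of 23 cells at E4.5, 10 of 23 at E3.5, 4 of 20 female and 5 of 63 male cells at E5.5. E5.5 cells also carried Amn, a visceral endoderm gene, at a mean of 204 FPKM in female and 55.8 FPKM in male cells. Among motor neuron cells the 6 neuron markers summed to a median of 140 FPKM in female cells (range 3.48 to 9862) and 1001 FPKM in male cells (range 5.61 to 13837). The 6 endoderm markers summed to 19.7 FPKM (0 to 787) and 296 FPKM (3.15 to 2854) in the same cells, and all 6 neuron and all 6 endoderm genes averaged at least 1 FPKM in both cultures. Pou5f1 reached 1 FPKM in 17 of 39 female and 2 of 35 male motor neuron cells.

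The main test set the 4 culture states of the largest table against each other. Each culture was summarised by its mean FPKM over cells, and limma with a trended variance was fitted to log2(mean + 1) of the 8 cultures. It covered the 15504 genes averaging 1 FPKM or more, and p-values were adjusted over all of them by the Benjamini-Hochberg method. A call required a log2 change of 1 or larger in either direction beside an adjusted p below 0.05. The 2 lines are the replicates of a state, and 1 culture of each line stands for each state. The p-values measure the spread between a female and a male line, pooled over the 4 states. The SE of a gene is therefore the same in all 3 contrasts of states, and lines that lie apart in any 1 state widen it. Log2 changes are on the scale of mean FPKM + 1, which understates the change of genes near 1 FPKM. On the same scale 3 contrasts share cultures: both the Epi and the motor neuron contrast take serum ES cells as reference.

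Dnmt1 was the most evenly expressed gene of the set. Its mean was 33.2 FPKM in female and 34.4 in male 2i cells, 20.8 and 30.3 in serum, 37.1 and 29.4 in Epi, and 21.9 and 27.5 in motor neuron cells. Across these 8 cultures the highest mean was 1.79 times the lowest, against 4.38 (Tdg) to 1726 times (Dnmt3l) for the other genes, and single cells overlapped in every pair of states. It was 26.3 FPKM in the 7-passage Epi cells, 8.96 at E3.5, 7.40 at E4.5, and 36.2 in female and 38.8 in male E5.5 cells. Blastocyst cells thus stood lowest, in a table of their own. Within E3.5 the cells ran from 0 over a median of 6.51 to 31.4 FPKM, and within female E5.5 from 18.9 over 35.8 to 51.2 FPKM.

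Uhrf1 was more abundant than Dnmt1 in all groups except female motor neuron cells. It averaged 92.8 FPKM (SD 36.8, n = 60 cells) in female and 104.6 (SD 30.6, n = 51) in male 2i cells, and 38.3 (SD 28.4, n = 68) and 58.4 (SD 31.2, n = 52) in serum. The log2 difference of serum from 2i was −1.26 in the female and −0.83 in the male line, with a limma estimate of −1.04 (SE 0.30) and an adjusted p of 0.284. Both lines were lower in serum, but the difference did not pass the test. Epi cells had 66.5 (female), 76.4 (male) and 61.8 FPKM (7 passages). Motor neuron cells had 18.9 FPKM (SD 22.9, n = 39) and 27.6 FPKM (SD 37.2, n = 35), the lowest of the 8 cultures. Embryo cells had 46.2 FPKM at E3.5, 23.9 at E4.5, 135.1 in female and 131.4 in male E5.5 cells. The ratio of Uhrf1 to Dnmt1 means was 2.79 and 3.04 in female and male 2i cells and 0.862 and 1.00 in motor neuron cells. It was 5.16 at E3.5 and 3.23 at E4.5.

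**Figure D1:**
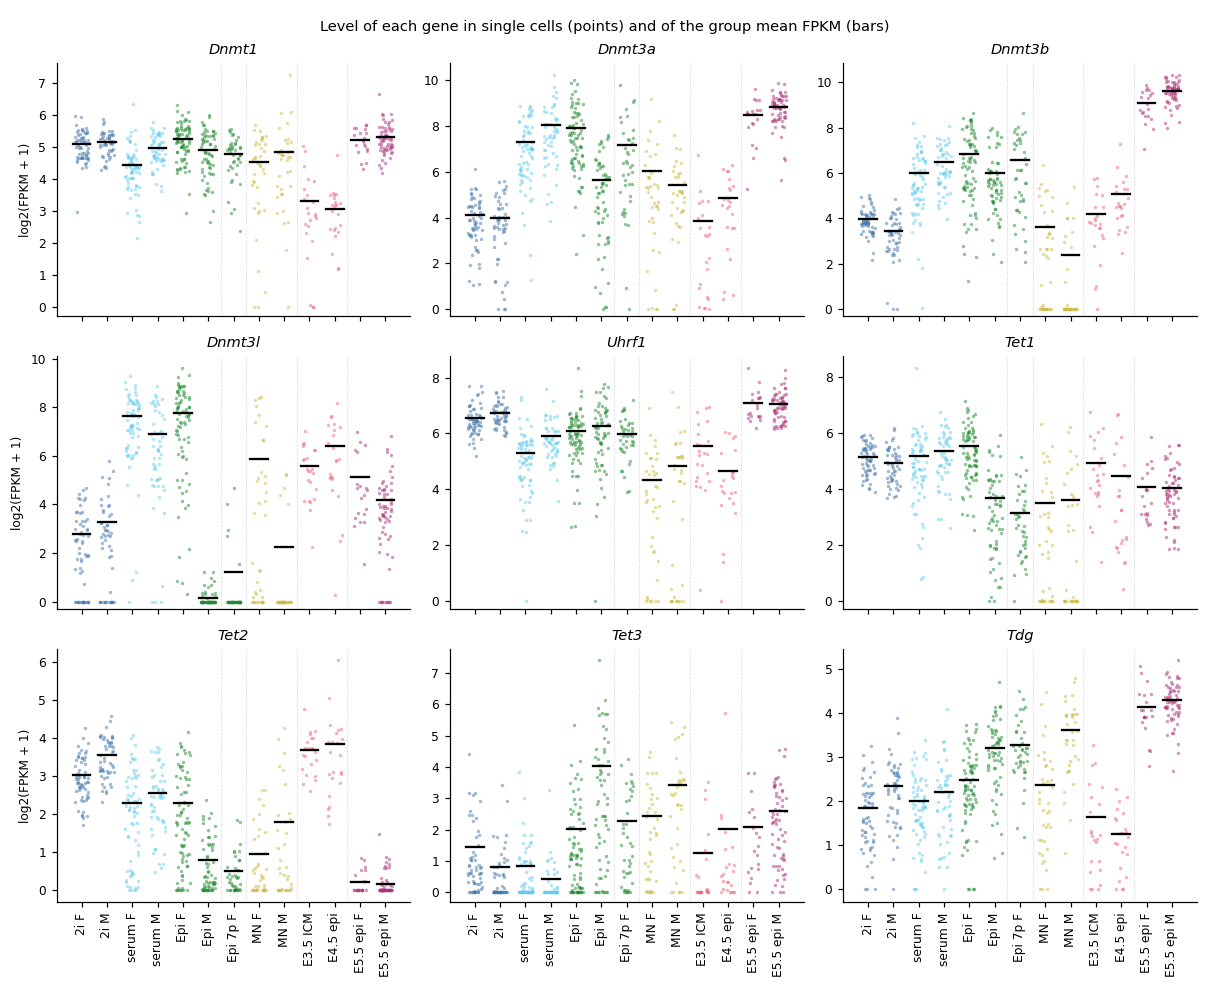
Each point is a cell at log2(FPKM + 1) of the named gene, in 13 groups on the x axis (F female, M male, 7p 7 passages, MN motor neuron, epi epiblast), and each bar is the log2 of the group's mean FPKM + 1. Dotted lines separate the 4 tables, with the 7-passage cells between 2 parts of the largest one, and 1 dotted line separates E4.5 from E5.5; Dnmt3l points lie near 0 in male and 7-passage Epi cells, and Dnmt3a and Dnmt3b stand highest at E5.5.

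De novo methyltransferase genes were far higher in serum than in 2i in both lines, without passing the test. Mean Dnmt3a was 16.1 FPKM (SD 12.0) in female and 15.0 (SD 12.4) in male 2i cells, and 157.2 (SD 128.9) and 260 (SD 226.5) in serum. Serum cells of the female line ran from 1.44 over a median of 125.4 to 471 FPKM, and 2i cells of that line from 1.08 over 13.1 to 69.7, so the cells overlapped although the medians lay far apart. The ratio of serum to 2i means was 9.74 in the female and 17.4 in the male line. The limma estimate was 3.62 (SE 0.72) with an adjusted p of 0.151.

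Dnmt3b, the second active de novo enzyme gene, averaged 14.7 (female) and 9.79 FPKM (male) in 2i, and 62.8 and 87.5 FPKM in serum, which are ratios of 4.26 and 8.93. The estimate was 2.53 (SE 0.50) with an adjusted p of 0.151. Dnmt3l averaged 5.89 and 8.58 FPKM in 2i and 196 and 118.5 FPKM in serum, ratios of 33.2 and 13.8, with an estimate of 4.24 (SE 2.37) and an adjusted p of 0.688. All 3 genes were thus higher in serum by more than 4-fold in each line. Over 20 alternative fits the estimates ran from 3.11 to 3.98 (Dnmt3a), 2.25 to 2.80 (Dnmt3b) and 3.88 to 4.60 (Dnmt3l). The SE of Dnmt3l pools all 4 states. Its female minus male log2 difference was −0.47 in 2i and 0.72 in serum, but 7.61 in Epi and 3.59 in motor neuron cells. A log2 change of 1 or more upward in each line was reached by 3.91% of all genes tested. None of the 9 was called in this contrast, in which 0.0193% of all genes (3 of 15504; 0 with the line as a replicate block) were called, and 3 of the 9 had an unadjusted p under 0.05 against 9.99% of all genes. The median log2 change was 0.01 over the 9 and 0 over all genes tested.

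Culture states also differed in how many cells carried the 3 genes together. Dnmt3a, Dnmt3b and Dnmt3l were all at 1 FPKM or more in 71.7% of female and 66.7% of male 2i cells, and in 95.6% and 92.3% of serum cells. The share was 96.2% in female Epi, 3.17% in male Epi (2 of 63 cells) and 12.2% in the 7-passage culture (5 of 41). Motor neuron cells had 43.6% (17 of 39) in the female and 2.86% (1 of 35) in the male line. At E3.5 and E4.5 the shares were 65.2% and 86.96%, and at E5.5 all 20 female and 85.7% of male cells carried all 3. The missing gene in Epi was Dnmt3l, since 92.1% of male and 95.1% of 7-passage Epi cells held both Dnmt3a and Dnmt3b.

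Epi cells split by culture and not only by state. Dnmt3l averaged 219 FPKM in the first female Epi culture, with cells from 0.250 over a median of 197 to 788. In male Epi it averaged 0.127 FPKM, with 48 of 63 cells at 0 and a highest cell of 1.36, and in the 7-passage culture 1.31 FPKM with 36 of 41 cells at 0. The ranges overlapped at their low end, the highest 7-passage cell being at 24.2 FPKM. Dnmt3a averaged 243.98 FPKM in the first female, 48.4 in the male and 144.96 in the 7-passage Epi cells. Dnmt3b averaged 112.3, 63.2 and 95.03 FPKM there, within 1 SD of each other (99.2, 59.9 and 92.8). The first female culture is the one in which Zfp42 stayed at 72.5 FPKM.

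In Epi against serum the lines took opposite directions for 5 of the 9 genes, as they did for 39.8% of all genes tested. In serum against 2i this held for 1 of the 9 (Tdg) beside 27.6% of all genes, and in motor neuron against serum for 1 (Dnmt1) beside 16.4%. The log2 difference of Dnmt3a was 0.63 in the female and −2.40 in the male line, and that of Dnmt3l was 0.16 and −6.73. That of Tet1 was 0.36 and −1.67, and that of Tet2 was −1.77 in the male line, whereas both female cultures averaged 3.91 FPKM. None of the 9 was called, against 0.0387% of all genes (6 of 15504; 2 with the line as a replicate block), and 1 of the 9, Tet3, had an unadjusted p under 0.05, against 6.45% of all genes. The median change over the 9 was 0.18, and 0.12 over all genes. Without the first female Epi culture the limma estimates were −2.04 for Dnmt3a (adjusted p 0.0966), −7.09 for Dnmt3l (0.102), −1.59 for Tet1 (0.0567) and 3.38 for Tet3 (0.0693), and again none was called. In that fit the male Epi culture stands alone and is assumed to vary like the other states.

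Within Epi, 1 culture stood against 1, which gives no test. Between the first female and the male culture 4 genes of the set were higher in the female by a log2 ratio of 1 or more (Dnmt3a 2.31, Dnmt3l 7.61, Tet1 1.86, Tet2 1.51) and 1 was lower (Tet3 −1.99). Of all genes at a mean of 1 FPKM or more, 15.7% were higher and 10.7% lower by that size. Between the 7-passage and the first female culture 3 were lower (Dnmt3l −6.57, Tet1 −2.38, Tet2 −1.80) and 0 higher, with 12.9% of all genes lower and 13.4% higher. These 2 female cultures lie in different tables, which were treated as normalised separately. Dnmt3l, Tet1 and Tet2 were therefore low in both the male and the 7-passage culture and high in the first female one.

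**Figure D2:**
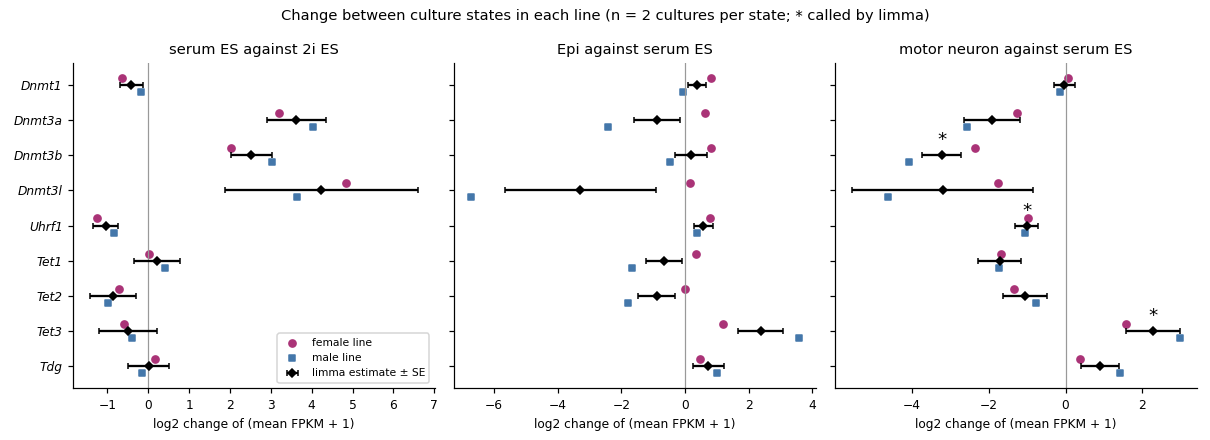
Log2 change of culture mean FPKM + 1 on the x axis for each gene on the y axis, in 3 contrasts of culture states; circles are the female line, squares the male line, diamonds the limma estimate with its SE, and stars mark called genes. Dnmt3b, Uhrf1 and Tet3 carry stars in the motor neuron panel alone, and in the Epi panel the lines lie on opposite sides of 0 for Dnmt1, Dnmt3a, Dnmt3b, Dnmt3l and Tet1.

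Motor neuron cells were the state with calls. Dnmt3b fell, Uhrf1 fell and Tet3 rose relative to serum ES cells, so 3 of the 9 were called. Of all genes tested 32.8% were called, 30.1% as higher and 2.70% as lower. The share of the set is therefore near that of all genes, with 2 of its 3 calls in the direction that few genes took. The median of all genes was itself shifted by 0.71, and called genes were 91.8% higher ones (4669 higher, 419 lower). That share was 75.04% with log2 values averaged over cells, 69.05% with each cell rescaled to a common sum and 56.3% with upper-quartile scaling. The median over the 9 genes was −1.05.

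In motor neuron cells Dnmt3b averaged 11.3 FPKM in the female line and 4.18 in the male, against 62.8 and 87.5 in serum. In male motor neuron cells 23 of 35 were at 0 and the highest was 41.3 FPKM, while male serum cells ran from 14.7 to 267.04 FPKM, so the cells overlapped only in part. The change was −2.37 in the female and −4.09 in the male line, with an estimate of −3.23 (SE 0.50) and an adjusted p of 0.00606 by limma. Relative to the median of all genes it was −3.94. This call was kept in all 20 alternatives (adjusted p 0.00425 to 0.0495).

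Uhrf1 differed from serum by −0.98 and −1.05 in the female and male line, with an estimate of −1.02 (SE 0.30) and an adjusted p of 0.0395. Relative to the median of all genes it was −1.72. Its call was lost in 11 of 20 alternatives (adjusted p 0.00586 to 0.192), among them the omission of any 1 culture except male motor neuron. The adjusted p was then 0.0535 (without female Epi) to 0.192 (without male serum). Uhrf1 was at 1 FPKM or more in 79.5% of female (interval 63.5 to 90.7%) and 65.7% of male motor neuron cells (47.8 to 80.9%), against 98.5% and all 52 of the serum cells.

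Tet3 differed from serum by 1.58 and 2.99 on the log2 scale in the female and male line, with an estimate of 2.28 (SE 0.71) and an adjusted p of 0.0470. Relative to the median of all genes it was 1.58. It was 0.0517 with the line as a replicate block, which ends the call, and the call was lost in 12 of 19 alternatives in all (0.0203 to 0.201). Leaving out any 1 culture of 2i, serum or motor neuron ended it, with an adjusted p of 0.0688 (without female motor neuron) to 0.201 (without male motor neuron). Tet3 averaged 4.38 and 9.69 FPKM in motor neuron cells and 0.802 and 0.345 FPKM in serum. It was present in 61.5% of female and 77.1% of male motor neuron cells, against 20.6% and 9.62% of serum cells.

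Of the genes not called, Tet1 had a log2 estimate of −1.71 (SE 0.56, adjusted p 0.0558) and Dnmt3a of −1.92 (SE 0.72, adjusted p 0.0805). Tet1 was called in 8 of 20 alternatives and Dnmt3a in 3 of 20. With the female or the male culture of Epi left out, their adjusted p-values were 0.00657 and 0.00632 for Tet1 and 0.0156 and 0.0154 for Dnmt3a. The estimates were −3.20 for Dnmt3l (adjusted p 0.320), −1.05 for Tet2 (0.194), 0.89 for Tdg (0.203) and −0.03 for Dnmt1 (0.953). Dnmt3a was the most abundant de novo gene in motor neuron cells, at 65.3 and 42.6 FPKM. The ratio of Dnmt3a to Dnmt3b means in motor neuron cells was 5.77 for the female and 10.2 for the male line, against 2.50 and 2.97 in serum and 1.09 and 1.53 in 2i.

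Female motor neuron cells with Pou5f1 had other levels than those without. In the 17 cells with Pou5f1 at 1 FPKM or more, Dnmt3l averaged 109.4 FPKM (median 32.8), against 16.03 FPKM (median 0.279) in the other 22. Dnmt3a averaged 111.7 against 29.4 FPKM, Dnmt3b 16.6 against 7.27 and Tet1 15.3 against 6.18. Tet3 averaged 3.38 against 5.15 FPKM and Tdg 2.58 against 5.38. Nanog, another pluripotency marker, averaged 6.17 against 6.51 FPKM. Each range overlapped between the subsets. In male motor neuron cells, with Pou5f1 in 2 of 35, Dnmt3l averaged 3.79 FPKM with 30 cells at 0. Between the 2 motor neuron cultures Dnmt3b (1.25) and Dnmt3l (3.59) were higher in the female by a log2 ratio of 1 or more and Tdg (−1.23) lower, beside 13.6% and 17.5% of all genes. The part of the cells with Pou5f1 in these differences was not tested.

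Tet genes differed in their proportions. Tet1 made up most of the summed Tet mean in 2i (79.6% in female, 72.01% in male cells) and in serum (88.1% and 88.3%). In male Epi its share was 42.3% and that of Tet3 55.1%, while female Epi kept 86.6% Tet1. In the 7-passage culture Tet1 held 64.6% and Tet3 most of the rest. Tet3 held 28.3% and 41.6% in female and male motor neuron cells, against 2.02% and 0.770% in serum. Tet2 held 28.1% at E3.5 and 35.8% at E4.5, its highest shares, and 0.911% and 0.633% at E5.5. The summed Tet mean was 43.2 and 41.1 FPKM in 2i, 39.7 and 44.8 in serum, 52.1 and 27.7 in Epi, 12.1 in the 7-passage culture and 15.5 and 23.3 in motor neuron cells. It was 42.2 FPKM at E3.5, 37.1 at E4.5, and 19.2 and 20.6 in female and male E5.5 cells.

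Tet1 by itself ranged little between the ES states. It averaged 34.4 and 29.6 FPKM in female and male 2i cells and 35.03 and 39.5 in serum, a limma estimate of 0.21 (SE 0.56, adjusted p 1.0). It was 45.1 FPKM in the first female Epi culture, 11.7 in male Epi, 7.84 after 7 passages, and 10.2 and 11.1 in motor neuron cells. Tet1 at E3.5 averaged 28.98 FPKM, at E4.5 20.7, and at E5.5 15.8 in female and 15.5 in male cells.

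Tet2 was highest in blastocyst and 2i cells. It averaged 7.11 and 10.7 FPKM in 2i, 3.91 and 4.91 in serum, 3.91 and 0.728 in Epi, 0.414 after 7 passages, and 0.941 and 2.49 in motor neuron cells. At E3.5 and E4.5 it averaged 11.8 and 13.3 FPKM and was present in all 46 cells. At E5.5 it was present in 0 of 20 female cells (interval up to 16.8%) and 1 of 63 male cells (1.59%, interval 0.0402 to 8.53%). The E5.5 range, up to 1.81 FPKM, did not reach the lowest E4.5 cell at 2.33 FPKM, though the 2 stages lie in separate tables and differ in the cross of the parents.

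Tet3 in male Epi averaged 15.2 FPKM (SD 25.7, n = 63), the highest of all groups, with cells from 0 over 6.03 to 167.8. The numbers in the titles of the male Epi cells form 2 runs, whose meaning the labels do not give, and Tet3 averaged 5.98 FPKM in the lower and 24.2 in the higher run. The Tet3 share was 29.3% and 69.8% in these runs, both above the 5.93% of female Epi. Over the set, 2 of 63 combinations of gene and culture with 2 runs differed by more than a log2 ratio of 1 between runs. The other was Dnmt3l in female motor neuron cells, at 74.9 and 33.2 FPKM.

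**Figure D3:**
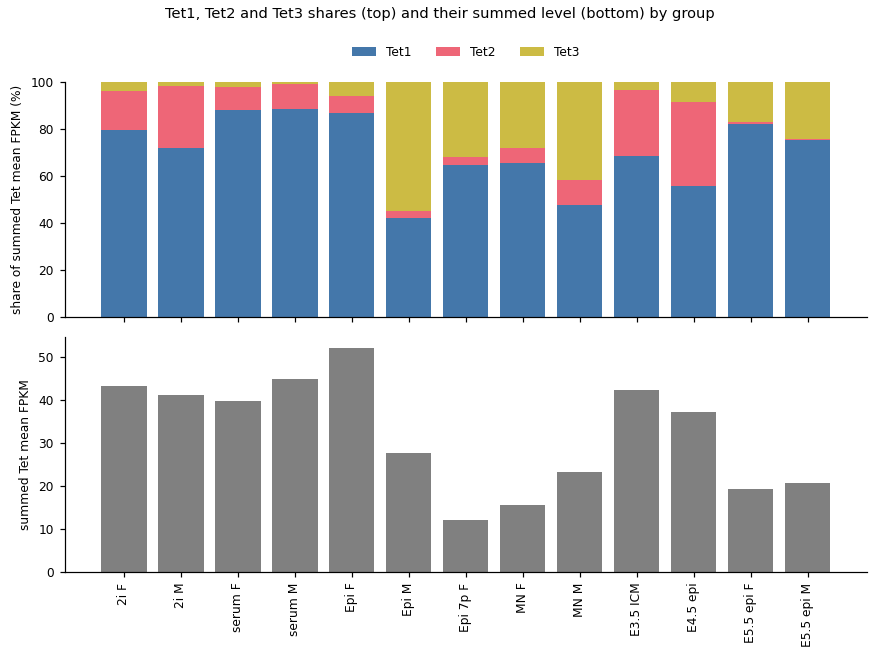
Top, share of each Tet gene in the summed mean FPKM of the 3 genes (%), by group; bottom, that sum in FPKM. Tet1 leads in 12 of the 13 groups, male Epi holds 55.1% Tet3, and Tet2 is largest at E3.5 and E4.5.

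On the deposited scale, mean Tdg was lowest in blastocyst cells and highest at E5.5. It averaged 2.55 and 4.07 FPKM in 2i, 3.00 and 3.57 in serum, 4.53 and 8.16 in Epi, 8.57 after 7 passages, and 4.16 and 11.1 in motor neuron cells. It was 2.09 FPKM at E3.5 and 1.35 at E4.5, and 16.4 (SD 6.75, n = 20) and 18.5 (SD 5.61, n = 63) in female and male E5.5 cells. The lowest E5.5 cell held 5.40 FPKM and the highest E4.5 cell 3.78, whereas the highest E3.5 cell held 8.59 FPKM. E4.5 and E5.5 thus did not overlap on the deposited scale of their separate tables. The FPKM of a cell summed to a median of 511794 at E4.5 and 612768 at E3.5, against 1027090 in female and 995182 in male E5.5 cells. Tdg at E4.5 and E5.5 was not compared on a common sum. No contrast of culture states called Tdg: the estimates were 0.01 (SE 0.50, adjusted p 1.0) for serum against 2i and 0.74 (SE 0.50, adjusted p 0.734) for Epi against serum.

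Between the lines none of the 9 was called, with the state as a block and 3 residual degrees of freedom. No gene of the 15504 was called (0.0%), and 1389 had an unadjusted limma p under 0.05 (8.96%). Uhrf1 (−0.37, SE 0.15, adjusted p 0.532) and Tdg (−0.67, SE 0.24, adjusted p 0.532) were lower in the female line in each of the 4 states, a shared direction that 21.4% of all genes showed. In 2i and in serum none of the 9 differed by a log2 ratio of 1 or more between the lines, beside 4.14% of all genes higher and 4.77% lower in the female 2i culture and 4.57% and 4.65% in serum. The largest estimate, 2.86 for Dnmt3l (SE 1.34, adjusted p 0.532), rests on Epi, where it was 7.61, and on motor neuron cells.

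In the embryo the 3 stages lie in 2 tables, and E4.5 against E3.5 is 1 sample a stage, with no test. Dnmt3a averaged 13.3 FPKM (0 over a median of 8.23 to 106.05) at E3.5 and 28.1 (0.345 over 22.7 to 78.7) at E4.5, a log2 ratio of 1.02. It was the only one of the 9 past a log2 ratio of 1, beside 11.6% of all genes higher and 13.4% lower by that size. Dnmt3b (0.85) and Dnmt3l (0.82) were on the upper side, Uhrf1 (−0.92) and Tet1 (−0.46) on the lower, and the cells overlapped for each. The ratio of Tet3 was 0.77 with 1 E4.5 cell at 51.3 FPKM and −0.33 without it, and that of Tet2 was 0.15 with its highest cell and −0.10 without. These omissions were chosen after seeing the data. Leading numbers in the titles, 4 at E3.5 and 7 at E4.5, are not explained in the labels. Dnmt3a means ran from 4.90 to 27.3 FPKM over the 4 and from 5.69 to 44.7 over the 7.

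Cells of high Cdx2 differed from the others in the means of some genes at E3.5 and E4.5, with overlapping ranges. Cells with Cdx2 at 10 FPKM or more, of which E4.5 held 16 of 23 and E3.5 10 of 23, had higher mean Dnmt3a. It was 22.9 against 5.98 FPKM in the other cells at E3.5 and 31.9 against 19.3 at E4.5. The E3.5 cells of high Cdx2 had a Dnmt3a median of 9.93 FPKM and a highest cell of 106.05. Tet1 averaged 11.4 FPKM in the 16 cells above that level and 42.2 in the 7 below it at E4.5, and 21.2 and 34.9 at E3.5. Uhrf1 averaged 27.9 and 60.3 FPKM at E3.5 and 19.7 and 33.5 at E4.5. The means of Dnmt1, Dnmt3l, Tet2 and Tdg changed direction between the stages. Dnmt1 averaged 4.92 and 12.1 FPKM at E3.5 but 8.09 and 5.80 at E4.5. Dnmt3l averaged 53.4 and 42.7 FPKM at E3.5 but 75.5 and 104.7 at E4.5. Dnmt3b averaged 17.5 and 17.4 FPKM at E3.5 and 35.2 and 25.7 at E4.5. Krt8, a trophectoderm keratin, averaged 270 and 7.64 FPKM in the same E4.5 cells, and Pou5f1 223 and 494. With the cells of high Cdx2 left out, 3 genes passed a log2 ratio of 1 between E4.5 and E3.5: Dnmt3a (1.54) and Dnmt3l (1.27) upward and Tdg (−1.29) downward, over 7 and 13 cells. In that subset 12.2% of all genes were higher and 13.2% lower by that size. The Dnmt3a means of 19.3 and 5.98 FPKM there stood beside medians of 3.54 and 2.37, so few cells carried them. Dnmt3l means of 104.7 and 42.7 FPKM stood beside medians of 56.5 and 40.8. Tdg averaged 0.498 and 2.66 FPKM, with 28.6% and 76.9% of these cells at 1 FPKM or more.

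At E5.5 Dnmt3a and Dnmt3b reached their highest levels of all groups. Dnmt3b averaged 539 FPKM (132.3 over 487 to 940) in female and 788 (250 over 805 to 1280) in male cells. Dnmt3a averaged 356 FPKM (37.3 over 372 to 779) and 455 (49.4 over 459 to 946). Dnmt3b exceeded Dnmt3a in 17 of 20 female cells and 98.4% of male cells, whereas it did so in 13.2% and 9.62% of serum ES cells. The lowest E5.5 cell for Dnmt3b, at 132.3 FPKM, lay below the highest E4.5 cell at 152.9 FPKM, and this was the only pair of cells that crossed, the next being 243.1 and 74.9 FPKM. Dnmt3l averaged 34.4 and 17.3 FPKM at E5.5, and 47.3 and 84.4 FPKM at E3.5 and E4.5, in separate tables.

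Cells of high Cdx2 at E5.5 had a different balance. In the 4 female cells with Cdx2 at 10 FPKM or more, Dnmt3l was at 70.2 to 126.1 FPKM, and in the other 16 it was at 1.95 to 93.5, with means of 89.3 and 20.6. Their Dnmt3a averaged 128.9 against 413 FPKM and Dnmt3b 314.7 against 595. In the 5 male cells Dnmt3l averaged 65.7 against 13.1 FPKM, Dnmt3a 180 against 479 and Dnmt3b 462 against 816. Elf5, a transcription factor of the extraembryonic ectoderm, averaged 26.8 against 4.67 FPKM in these female and 25.5 against 2.57 in these male cells. Both sexes thus showed high Dnmt3l beside lower Dnmt3a and Dnmt3b in the cells of high Cdx2.

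**Figure D4:**
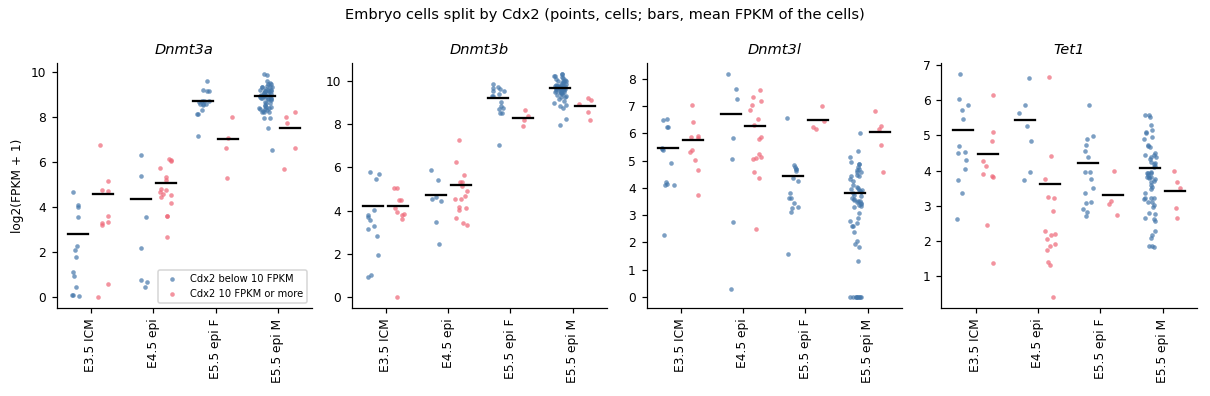
Points are embryo cells at log2(FPKM + 1) of 4 genes, split at 10 FPKM of Cdx2, and bars are the log2 of the mean FPKM + 1 of those cells. At E5.5 the cells of high Cdx2 sit lower for Dnmt3a and Dnmt3b and higher for Dnmt3l, and at E4.5 they sit lower for Tet1.

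Between the sexes at E5.5 none of the 9 differed by a log2 ratio of 1 or more, with 5.97% of all genes higher and 4.78% lower in female cells and 1 sample a sex. The largest ratios were 0.95 for Dnmt3l and −0.55 for Dnmt3b. Without the cells of high Cdx2 again none did, beside 5.86% of all genes higher and 5.19% lower. Endoderm markers differed beside them, with a summed median of 260.7 FPKM in female (range 35.96 to 636) and 50.9 in male cells (range 3.33 to 282.5). Their part in the ratios was not tested.

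Within groups the members were related to replication genes in different degree. Spearman's rho of Uhrf1 with the mean log2(FPKM + 1) of Mcm2 to Mcm7, which encode the replicative helicase, ran from 0.44 to 0.78 over the 13 groups of 20 to 79 cells, with a median of 0.64. For Dnmt1 it ran from 0.09 to 0.62 with a median of 0.39. Medians of the other 7 genes lay between −0.07 and 0.08. Single groups stood apart from those medians, with Dnmt3b at 0.65 and 0.59 in female and male E5.5 cells and Tet1 at 0.56 at E3.5 and 0.71 at E4.5. Cells of a group share their table's scaling, their depth is unknown, and these values are descriptions. Dnmt1 and Uhrf1, the pair whose promoters are printed above, had a rho of 0.09 to 0.69 with each other (median 0.39). At E5.5 Dnmt3a and Dnmt3b had a rho of 0.71 in female and 0.67 in male cells, and Dnmt3a and Dnmt3l −0.66 and −0.40. These groups include the cells of high Cdx2, in which mean Dnmt3l was higher and mean Dnmt3a and Dnmt3b were lower. The part of those cells in the rho values was not tested.

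**Figure D5:**
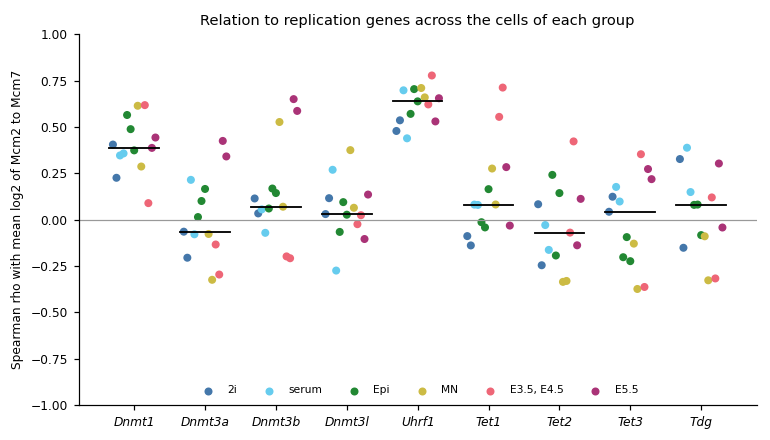
Spearman's rho of each gene with the mean log2(FPKM + 1) of Mcm2 to Mcm7 across the cells of a group (y axis), 1 point a group coloured by state, with the median over 13 groups as a bar. All 13 Uhrf1 points lie at 0.44 or above, and the medians of the 7 genes other than Uhrf1 and Dnmt1 lie near 0.

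Genes with the most similar pattern over the 8 cultures were found by Pearson's r of log2(mean FPKM + 1) among 9966 genes averaging at least 5 FPKM. Dnmt3a was nearest to Rhd (0.997), Enpp3 (0.983) and Tfdp2 (0.976), and Dnmt3b to Mnd1 (0.985), Aasdh (0.985) and Cmss1 (0.974). Dnmt3l was nearest to Slc20a1 (0.984), Tle4 (0.959) and Mael (0.958), and Tet1 to Kdm5b (0.990), Rfc5 (0.989) and Fancl (0.989). Uhrf1 was nearest to Ptpn2 (0.971), Gm25878 (0.966) and Mtfp1 (0.966), and Dnmt1 to Aars2 (0.934), Cdkal1 (0.931) and Grhpr (0.931). Tet2 was nearest to Zfp57 (0.991), Tsfm (0.983) and Itpk1 (0.974), Tet3 to Atp6v0a2 (0.975), Endov (0.968) and Rbm39 (0.968), and Tdg to Edc3 (0.987), Nrbf2 (0.981) and Nprl3 (0.975). The 8 points are 4 states of 2 lines. None of the 3 nearest genes of any member was another member.

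Genes around the set were read from 7 further lists. In serum against 2i and in Epi against serum none of their tested genes was called. Serum against 2i gave its highest estimate for Gadd45a, a gene linked to DNA repair and demethylation, from 2.78 and 1.71 FPKM in 2i to 31.5 and 27.6 in serum (3.25, adjusted p 0.224). Prdm14, which represses de novo methyltransferase genes in ES cells, was at −1.77 (0.492) there, Lin28a at 1.19 (0.311) and Idh1 at −1.26 (0.659). The other genes that the rule names there lay between −1.12 (Idh2) and 1.51 (Ccne1). Epi against serum had Dppa3, which shields DNA from UHRF1, at −3.32 (0.727) and Gadd45b at −1.49 (0.727). The others there lay between −1.65 (Prdm14) and 1.18 (Cxxc5).

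In motor neuron against serum, in which 32.8% of all genes were called, partners of maintenance methylation gave 1 call upward and 3 downward of 8 tested. Cdca7 fell by 2.40 on the log2 scale (SE 0.30, adjusted p 0.00381), from 86.9 and 115.97 FPKM in serum to 21.9 and 15.1. Hells, the remodeller that CDCA7 activates, fell by 2.17 (adjusted p 0.0125), and Cdca7l by 1.79 (0.0456). Uhrf2, the paralog of Uhrf1, rose by 1.42 (0.0393). The Cdca7 call was kept in all 20 alternatives, and those of Hells, Cdca7l and Uhrf2 were lost in 3, 10 and 11 of 20.

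Regulators of the enzymes gave 0 calls upward and 2 downward of 14 tested: Zscan10, a pluripotency factor, fell by 4.00 (adjusted p 0.00787) and Prdm14 by 2.55 (0.0367). These calls were lost in 3 and 8 of 20 alternatives. Dppa3 stood at −5.27, the lowest estimate of the lists, and was not called (adjusted p 0.0710). Base excision repair genes gave 2 calls each way of 13 tested of 15. Polb, the gap-filling polymerase, rose by 1.63 (0.00729) and Smug1, a glycosylase, by 1.40 (0.0352), while Ung, the uracil glycosylase, fell by 2.39 (0.0248) and Hmces, which shields abasic sites, by 2.01 (0.0401). The Smug1 call was lost in 13 of 19 alternatives (log2 change down to 0.73), and those of Polb, Ung and Hmces in 4, 6 and 8 of 20. Methyl-CpG readers gave 2 calls upward of 6 tested of 7, Mbd1 (2.40, adjusted p 0.0113) and Mbd2 (2.50, adjusted p 0.0194), lost in 3 of 19 and 8 of 20 alternatives. Of 12 genes for methyl donors and cofactors, Idh1 (2.81, adjusted p 0.0211) and Idh2 (1.17, adjusted p 0.0216), which supply the 2-oxoglutarate that TET enzymes use, rose, and Shmt1 of the folate cycle fell by 1.08 (0.0312). The Idh2 call was lost in 10 of 20 alternatives (log2 change down to 0.31), and those of Idh1 and Shmt1 in 7 and 8. Each rise in these lists stands beside the shift of 0.71 of all genes. S phase genes gave 2 calls downward of 11, Mcm2 (−1.44, adjusted p 0.00859) and Ccne1 (−2.25, adjusted p 0.0245), lost in 1 and 8 of 20 alternatives. The median sum of the S phase list was 1242 (female) and 597 FPKM (male) in motor neuron cells, against 1470 and 1782 in serum, and its part in the fall of Uhrf1 was not tested. Not called were Mthfd1 (−1.19, adjusted p 0.0831), Kdm1b (0.73, 0.218), Ehmt1 (0.59, 0.0856) and Gins2 (0.10, 0.711), of which Ehmt1 and Gins2 turned negative under both rescalings. The lowest list median was −0.85 (maintenance partners) and the highest 0.38 (methyl-CpG readers), all below the 0.71 of all genes.

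Of the other methyltransferase genes, Dnmt3c, a rodent copy of Dnmt3b whose reads could be shared with it, averaged 0.0242 to 1.27 FPKM over the 13 groups and was not tested. Its level stayed far below the 4.18 to 788 FPKM of Dnmt3b. Trdmt1, which methylates transfer RNA, averaged 7.79 to 20.8 FPKM in the 8 cultures and was called in none of the 4 contrasts.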

How the data were processed

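Per the labels' protocols, libraries of 617 mouse cells were made by SMART-seq2 and Tn5. The authors deposited FPKM per gene and cell in 4 tables; STAR 2.4.1, Cufflinks, Cuffnorm 2.2.1 and the build mm10 are named in the submitters' processing notes, without their settings. Each table held 43628 Ensembl IDs, of which 42462 were given symbols from GENCODE. In 356 values a low line stood for the minus sign of an exponent, and they were read as small numbers. No pair of cells within a table correlated above a Pearson r of 0.938, so none looked like 1 library deposited repeatedly. Depth per cell is unknown and limits values near 1 FPKM.

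The 8 cultures of the largest table entered limma 3.58.1 in R 4.3.3 as log2(mean FPKM + 1), with a pseudocount of 1, genes of mean 1 FPKM or more (15504) and 4 residual degrees of freedom for the states (3 for the line contrast, with the state as a term). Calls needed a log2 size of 1 or more and an adjusted p (Benjamini-Hochberg) below 0.05. Simulated data had 200 changed genes of 15504 and normal noise with the average variance of genes of similar level. Of changes of 3 on the log2 scale, 69.5% were found in the serum, 72.5% in the Epi and 70% in the motor neuron contrast. Of changes of 1.5, 0%, 3% and 4% were found. In the line contrast the shares were 96% and 26.5%. SEs of the members in contrasts of states ran from 0.28 (Dnmt1) to 2.37 (Dnmt3l). These shares are therefore not those of any single gene. The motor neuron contrast also differed from the simulated setting, since 5088 of 15504 genes were called in it. The Benjamini-Hochberg threshold depends on how many genes change, so the simulated shares do not carry over to that contrast. Per the labels, the female and the male line are the same in every state, which pairs the cultures, and the female minus male deviations of 2 states correlated with a Pearson r of 0.06 to 0.16 over 6 pairs of states. The line as a replicate block was therefore fitted too.

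The 9 genes and the gene lists were chosen with earlier results of these data known. All 9 are named throughout. Of each further list, per contrast, the rule names the 2 largest rises and the 2 largest falls shared by both lines; in contrasts without a call a few of them, picked after their values were seen, are printed with the range of the others. 1 of the genes that the rule names is not reported here. Cdca7l and Prdm14 were added in the motor neuron contrast because they were called. Comparisons with 1 sample an arm carry no test. Shares of cells use 1 FPKM and exact Clopper-Pearson 95% intervals. The Cdx2 split at 10 FPKM and the promoter motif were chosen after seeing the data. Promoter windows came from RefSeq (GRCm38.p6). Alternatives were a pseudocount of 0.1, no filter or one at 5 FPKM, log2 values averaged over cells, cells rescaled to a sum of 1000000, upper-quartile scaling, cells of few genes left out, either run of title numbers, the block, only the 4 cultures compared and each culture left out. Protein sequences were not used here.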

Additional observations from a re-analysis of the deposited data

Results flagged for a closer look

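In Epi against serum ES the lines took opposite directions for 5 of the 9 genes, beside 39.8% of all genes tested. The female minus male difference in log2 change was 6.89 for Dnmt3l (0.16 in the female and −6.73 in the male line), 3.03 for Dnmt3a (0.63 and −2.40), 2.03 for Tet1 (0.36 and −1.67), 1.29 for Dnmt3b (0.83 and −0.46) and 0.85 for Dnmt1 (0.81 and −0.04). In serum against 2i the same held for Tdg, with a difference of 0.32 (0.17 and −0.15), and in motor neuron against serum for Dnmt1, with 0.21 (0.08 and −0.13). Each line is 1 culture a state and the difference was not tested in any of these. The marker Zfp42 averaged 72.5 FPKM in female Epi, against 0.0687 in male Epi.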

How the results depend on the processing

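Results that did not hold their size or direction are given here, and the cause was not tested unless named. In motor neuron against serum, 3 of the 9 genes were called, 1 without the low-value filter, and 1 to 4 with 1 culture left out. With the line as a replicate block 2 were called, Dnmt3b and Uhrf1, and the block changed no other call of the 9. With each culture left out in turn, the 20 calls named in that contrast lost 11 without either 2i culture, 17 without either serum culture, 1 without either Epi culture and 8 without either motor neuron culture (adjusted p of those lost 0.0521 to 0.221). Between E4.5 and E3.5, 1 gene passed a log2 ratio of 1; the number was 2 with a pseudocount of 0.1, 4 with log2 values averaged over cells, 3 with rescaled cells, 4 with upper-quartile scaling, 0 with 2 cells of few genes left out and 3 without the cells of high Cdx2. Between the sexes at E5.5 it was 1 (Dnmt3l) with log2 values averaged over cells. Of all 15504 genes, limma called 3 in serum against 2i, but 0 with a pseudocount of 0.1, 0 with the block, 0 with only the 4 cultures compared, 27 without the filter, 12 with upper-quartile scaling, 11 in the higher run, 224 with log2 values averaged over cells and 0 to 38 with 1 culture left out. In Epi against serum it called 6, but 1 in the lower run, 2 with the block, 0 with only the 4 cultures, 9 without the filter and 0 to 337 with 1 culture left out. In motor neuron against serum it called 5088, but 3137 with rescaled cells, 2876 with only the 4 cultures and 1647 to 5576 with 1 culture left out.

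Signs also turned. In serum against 2i, Tet1 was −0.052 and Tdg −0.024 with log2 values averaged over cells, and in the higher run of title numbers Tdg was −0.10 and Uhrf2 0.094. With 1 culture left out, Tdg lay between −0.25 and 0.27. In Epi against serum, Dnmt3b was −0.025 with log2 values averaged over cells and Uhrf2 −0.19 in the higher run. With 1 culture left out, Dnmt3b lay between −0.23 and 0.59, Dnmt3a between −2.04 and 0.27, Dnmt3l between −7.09 and 0.52 and Tet1 between −1.59 and 0.27, the upper value of the last 3 being without male Epi. In motor neuron against serum, Dnmt1 was 0.069 in the higher run and −0.29 to 0.23 with 1 culture left out. Gins2 was −0.82 with log2 values averaged over cells, −0.38 with rescaled cells, −0.76 with upper-quartile scaling and −0.12 in the higher run, and Ehmt1 was −0.10 and −0.24 under both scalings. Between the lines, Tet2 was 0.013 with a pseudocount of 0.1, 0.054 with rescaled cells and 0.091 with upper-quartile scaling, and with only the 2 ES states Dnmt3a was −0.31 and Tet3 0.52. With 1 culture left out, Tet2 lay between −0.55 and 0.23, Dnmt3a between −0.0053 and 1.01, Tet1 between −0.027 and 0.65 and Tet3 between −0.85 and 0.017.

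Over the alternatives of the single genes, 1967 values kept direction and side of the threshold, 23 gained a call, 39 turned and the others lost a call. Of the shares of cells, 34 left their interval at a threshold of 0.1 FPKM and 44 at 5 FPKM.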
